A study of Mus musculus with 12 samples.

Results

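Pdk4, Ucp3, Angptl4, Plin2, Plin5, Acot1 and Acot2 are 7 PPAR-responsive fuel switch genes, chosen by name from 40594 genes. Each is known to respond to peroxisome proliferator-activated receptors (PPARs), and each has a role in fatty acid handling or in limiting glucose oxidation. They were chosen with earlier results of these data known. All 7 were among the 15494 genes that passed the filter on low counts. RNA had been sequenced from the heart ventricles of adult mice in 12 libraries, with 3 libraries in each of 4 groups: right ventricle (RV) with the genotype Wnt LOF, RV with the genotype control, left ventricle (LV) with Wnt LOF, and LV with control. LOF stands for loss of function of Wnt signalling, a cell communication pathway that acts in part through beta-catenin. The labels name neither the targeted allele nor a promoter, Cre line or induction, and they do not say what the control mice carried. Nor do they tie each library to an animal of its own, and p-values here measure the spread between libraries.

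PPARs are nuclear receptors that bind fatty acids and, paired with a retinoid X receptor, raise the transcription of genes for fatty acid handling. In heart muscle the main source of energy is fatty acid oxidation, and the PPAR target genes include brakes on glucose oxidation, coats of lipid droplets and mitochondrial enzymes that deal with an excess of fatty acyl-CoA. Fasting and high fatty acid supply are the classic conditions that raise these genes in the heart.

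Promoter sequences are shown for Plin2, which separated the genotypes in both ventricles, and Pdk4, which did so in the RV alone. They are also shown for 2 of the genes that separated the control ventricles (Ucp3 and Acot1). Each window holds 250 bases before and 50 bases after a RefSeq gene start on GRCm38.p6 and is written 5′ to 3′ on the gene's strand. Capitals mark AGGTCA, the half-site bound by many nuclear receptors (TGACCT is the same letters on the other strand), and CTTTGAT, a core bound by TCF/LEF factors, the DNA-binding partners of beta-catenin.
Pdk4, chr6:5496229-5496528, minus strand: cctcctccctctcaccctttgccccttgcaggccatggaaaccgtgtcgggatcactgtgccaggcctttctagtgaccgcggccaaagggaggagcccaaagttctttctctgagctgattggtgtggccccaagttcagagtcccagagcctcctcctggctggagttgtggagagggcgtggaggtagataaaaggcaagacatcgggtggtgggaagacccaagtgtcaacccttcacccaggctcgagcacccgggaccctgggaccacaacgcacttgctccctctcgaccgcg
Plin2, chr4:86670010-86670309, minus strand: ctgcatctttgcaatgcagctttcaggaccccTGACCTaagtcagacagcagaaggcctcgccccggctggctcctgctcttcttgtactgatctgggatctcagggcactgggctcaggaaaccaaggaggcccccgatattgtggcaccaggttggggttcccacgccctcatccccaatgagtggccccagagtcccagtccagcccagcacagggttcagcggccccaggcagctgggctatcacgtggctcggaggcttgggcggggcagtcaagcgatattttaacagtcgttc
Ucp3, chr7:100472741-100473040, plus strand: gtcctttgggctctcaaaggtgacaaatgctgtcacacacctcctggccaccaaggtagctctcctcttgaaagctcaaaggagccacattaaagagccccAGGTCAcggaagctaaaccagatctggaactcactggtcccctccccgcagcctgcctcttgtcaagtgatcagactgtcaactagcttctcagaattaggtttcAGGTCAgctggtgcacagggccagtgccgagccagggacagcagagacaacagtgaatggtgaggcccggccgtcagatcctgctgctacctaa
Acot1, chr12:84009252-84009551, plus strand: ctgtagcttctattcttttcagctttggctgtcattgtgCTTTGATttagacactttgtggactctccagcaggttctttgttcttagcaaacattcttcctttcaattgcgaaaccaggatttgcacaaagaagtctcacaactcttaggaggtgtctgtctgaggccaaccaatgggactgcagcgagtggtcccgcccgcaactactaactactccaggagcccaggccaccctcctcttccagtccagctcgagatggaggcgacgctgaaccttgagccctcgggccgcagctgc

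Searched on both strands, AGGTCA occurred in 16.3% of 32851 RefSeq promoter windows of this length. It occurred once in the Plin2 window, in 2 places in the Ucp3 window and in both windows listed for Plin5, and not in those of Pdk4, Acot1 or Acot2. The full direct repeat, AGGTCA followed by any 1 base and AGGTCA again, contains the half-site and occurred in 0.0396% of windows and in none of the 7 windows given for 6 of these genes, 2 of them for Plin5. Angptl4 was not searched. CTTTGAT occurred in 3.73% of windows and, among these genes, in the Acot1 window. These are letter matches in short windows, and no binding was measured.

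Total counts ran from 13274922 to 19173391 per library, and mitochondrially encoded genes took 4.62% to 8.29% of them. Heart muscle markers were present in every library: Myh6, Tnnt2, Tnni3, Actc1, Myl2, Ttn, Ryr2 and Pln summed to 144650 to 167301 CPM, the counts-per-million scale. Ctnnb1, which encodes beta-catenin, ran from 352 to 454 CPM in Wnt LOF RV and from 511 to 560 CPM in control RV. Ranges apart in that direction were found for 3.94% of genes tested. The LV ranges of Ctnnb1 overlapped (395 to 532 CPM in Wnt LOF, 426 to 598 CPM in control). Axin2, another gene of the pathway, overlapped in both ventricles. It ran from 4.47 to 7.28 CPM in Wnt LOF RV and from 4.57 to 8.15 CPM in control RV. Its LV levels were 3.48 to 8.06 CPM in Wnt LOF and 5.11 to 7.10 CPM in control. Lef1 of the same pathway reached at most 0.861 CPM. 3 libraries were set aside in alternatives, and 1 more had a feature of its own. Both Wnt LOF libraries numbered 1 carried ventricle-typical genes against their labels. Wif1 stood at 13.5 CPM in WntLOF LV 1, against 1.63 to 3.18 CPM in the other LV libraries. It stood at 2.55 CPM in WntLOF RV 1, against 11.99 to 18.4 CPM in the other RV libraries. Aqp4 went the same way, at 31.2 CPM in WntLOF LV 1 and 8.11 CPM in WntLOF RV 1. Kcnd2 was less clear. It stood at 91.2 CPM in WntLOF LV 1, above the other LV libraries (27.8 to 44.8 CPM). In WntLOF RV 1 it stood at 54.2 CPM, between those and the other RV libraries (59.5 to 109 CPM). The origin of control LV 2 was in doubt beforehand, and the basis of that doubt was not re-examined here. WntLOF RV 3 had 10.2 CPM of the atrial light chain gene Myl7, against at most 1.26 CPM elsewhere. Of the other atrial markers read, Myl4 (10.7 CPM, at most 2.86 CPM elsewhere) and Sln (1.85 CPM, at most 0.167 CPM elsewhere) were also highest in that library. Nppa was not raised in it, at 22.1 CPM against 15.4 to 83.7 CPM elsewhere. The library numbered 3 in each group was the one with reads of the Y-linked gene Ddx3y (102 to 136 CPM, against at most 0.772 CPM in the others). In whole tissue, fewer cells of a type and less RNA per cell cannot be told apart.

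Per kilobase of exon, Pdk4 was the highest of the 7 genes, with a mean of 179 CPM per kb over the 12 libraries and a range of 84.7 to 370 CPM per kb. Plin5 followed at 84.6 CPM per kb, with a range that overlapped that of Pdk4. Acot2 came next at 40.8 CPM per kb, below every Plin5 value, and Ucp3 and Plin2 lay side by side at 21.2 and 20.8 CPM per kb, with ranges that overlapped. Angptl4 at 2.81 and Acot1 at 1.88 CPM per kb were the lowest, and their ranges also overlapped. Between libraries Angptl4 varied most, 5.26-fold between the lowest and the highest CPM, followed by Pdk4 at 4.37-fold, and Acot2 varied least at 1.44-fold. Exon lengths were taken from GENCODE M21 on GRCm38, in which none of the 7 genes shares exon bases with another gene.

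**Figure D1:**
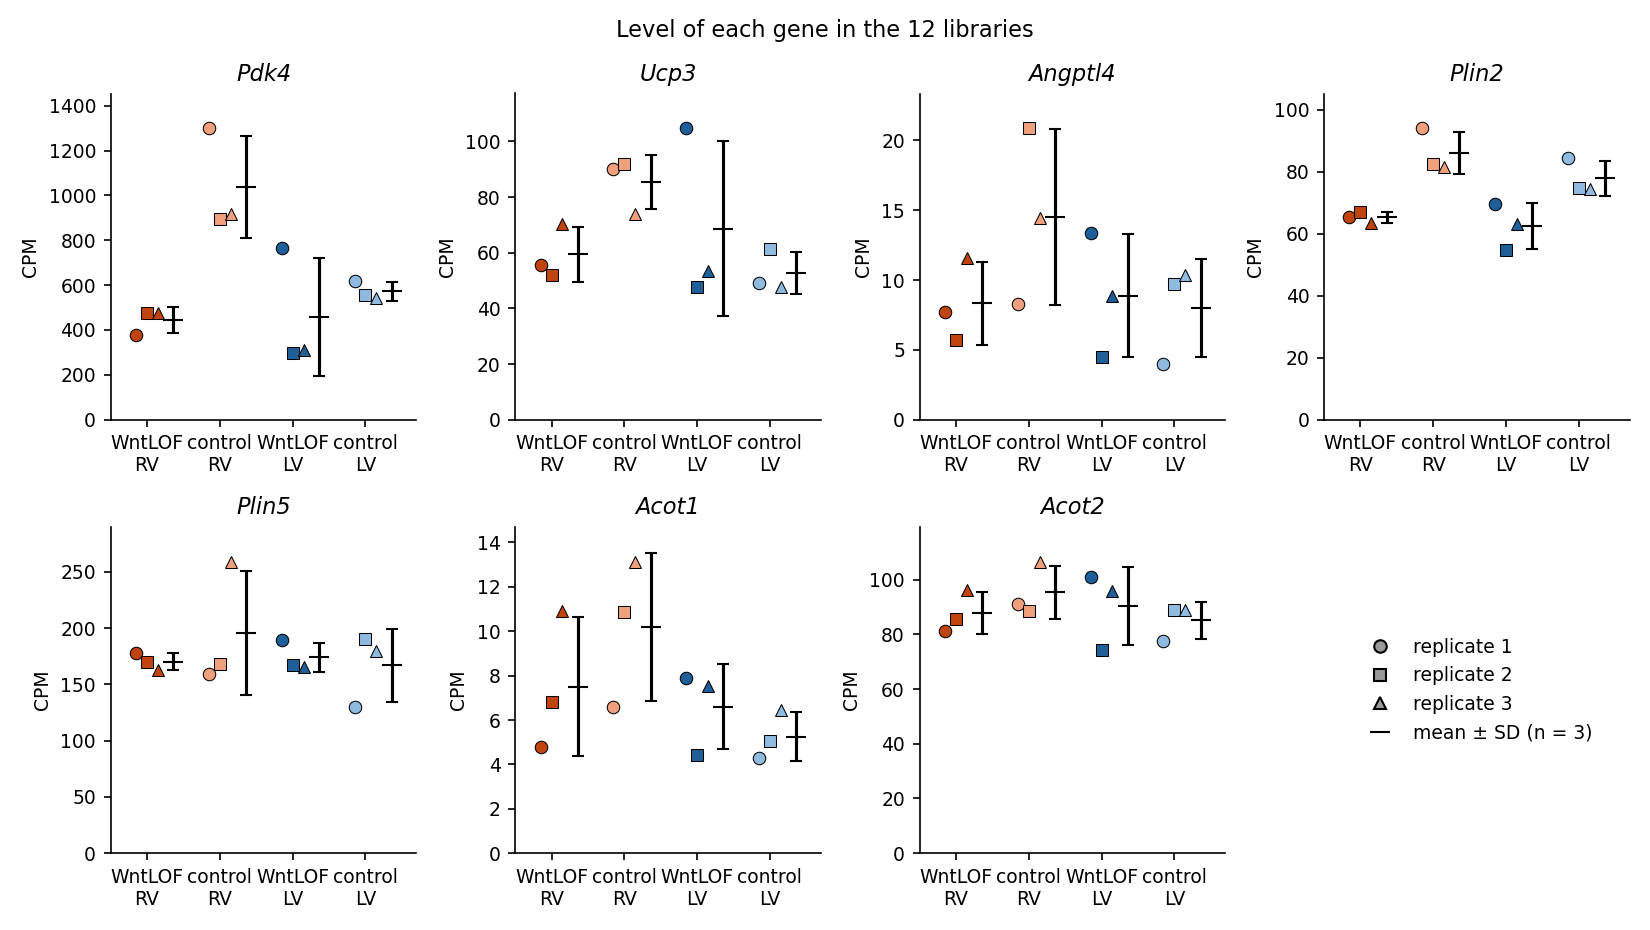
CPM of each gene (y axis, from 0) in the 12 libraries, with 1 panel per gene and the groups WntLOF RV, control RV, WntLOF LV and control LV along the x axis, with symbols for the replicate number and bars for the mean ± SD (n = 3). All WntLOF points of Plin2 lie below all control points, and the circle of WntLOF LV stands at 763 CPM for Pdk4.

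Pdk4 encodes pyruvate dehydrogenase kinase 4, which switches off pyruvate dehydrogenase and so limits glucose oxidation. In the RV it stood at 376, 478 and 477 CPM in Wnt LOF libraries, against 1299, 894 and 917 CPM in control libraries. Every Wnt LOF RV library lay below every control RV library, by a wide gap. The log2 fold change was -1.22 (SE 0.32), with an unadjusted p of 0.00351 and an adjusted p of 1 by edgeR's quasi-likelihood test, so Pdk4 was not called.
Its LV levels were 763, 297 and 313 CPM in Wnt LOF libraries, against 619, 557 and 541 CPM in control libraries. WntLOF LV 1 was the highest LV library while the other Wnt LOF LV libraries were the lowest, so the groups overlapped. The LV log2 fold change was -0.32 (SE 0.32, adjusted p 0.999 by edgeR). Without WntLOF LV 1 it was -0.91 in the LV, and the RV value, -1.22, then had an SE of 0.14, since the fit estimates the spread over all groups together. In that fit Pdk4 was the only gene called in the RV (adjusted p 0.0208 by edgeR, 0.00634% of genes called lower). Adjusted p-values for Pdk4 in the RV ran from 0.0208 to 1 over 23 alternatives, of which that 1 called it, and without both Wnt LOF libraries numbered 1 it was 0.0821.

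Plin2 encodes perilipin 2, the coat protein of lipid droplets in most tissues. In the RV it stood at 65.4, 66.9 and 63.5 CPM in Wnt LOF libraries, against 93.9, 82.6 and 81.7 CPM in control libraries. LV levels of Plin2 were 69.7, 54.8 and 63.3 CPM in Wnt LOF libraries, against 84.4, 74.6 and 74.4 CPM in control libraries. All 6 Wnt LOF libraries lay below all 6 control libraries, which was so for 13 of the 15494 genes tested (0.0839%).
The log2 fold change was -0.40 (SE 0.096) in the RV, where Plin2 ranked 2 by p of all genes tested (unadjusted p 0.00107, adjusted p 1 by edgeR). It was -0.31 (SE 0.097) in the LV, where it ranked 26 (unadjusted p 0.00602, adjusted p 0.999 by edgeR). The difference between those effects was -0.085 (SE 0.14), smaller than its error. The genotype effects of Plin2 were small next to that of Pdk4 in the RV, and its means were 65.3 ± 1.70 CPM in Wnt LOF RV and 86.1 ± 6.84 CPM in control RV, and 62.6 ± 7.44 CPM in Wnt LOF LV and 77.8 ± 5.76 CPM in control LV (SD, n = 3 each).

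After this was seen, the mean of both ventricles was compared between genotypes, where 3.61% of genes had an unadjusted p under 0.05, Plin2 and Pdk4 among them. Plin2 had a log2 fold change of -0.36 (SE 0.068, unadjusted p 0.000143, adjusted p 0.738 by edgeR) and Pdk4 of -0.77 (SE 0.23, unadjusted p 0.00661, adjusted p 1 by edgeR). Neither was called by edgeR, which called 0 genes here. DESeq2 called 3 genes lower (0.0194%), Plin2 among them, at a log2 fold change of -0.35 (SE 0.077, adjusted p 0.0186). Over 22 alternatives the adjusted p of Plin2 ran from 0.0186 to 1 and DESeq2's was the 1 call. The 6 libraries of a genotype may come from 3 hearts, and summing the ventricles of each number gave Plin2 -0.36 (SE 0.078, adjusted p 1 by edgeR).
Without WntLOF LV 1, edgeR called Pdk4 and no other gene in this mean, at -1.06 (SE 0.11, adjusted p 0.00447, 0.00634% called lower). Without both Wnt LOF libraries numbered 1 it called Pdk4 at -1.01 (SE 0.11, adjusted p 0.0128, 0.00637% called lower). The other 20 alternatives gave no call of Pdk4, and over all 22 its values ran from -1.06 to -0.65 with adjusted p-values up to 1.

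Plin5 encodes perilipin 5, the lipid droplet coat of oxidative muscle, which ties droplets to mitochondria. In the RV it stood at 178, 169 and 163 CPM in Wnt LOF libraries, against 159, 168 and 259 CPM in control libraries. In the LV it stood at 189, 167 and 165 CPM in Wnt LOF libraries, against 130.2, 190.4 and 179.8 CPM in control libraries. The groups overlapped in both ventricles, and control RV 3 was the library that stood apart. The log2 fold changes were -0.20 (SE 0.18) in the RV and 0.060 (SE 0.18) in the LV. Without control RV 3 the RV value was 0.054, so its direction rested on that library.

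Angptl4 encodes a secreted inhibitor of lipoprotein lipase, the enzyme that frees fatty acids from circulating triglyceride. In the RV it stood at 7.72, 5.72 and 11.6 CPM in Wnt LOF libraries, against 8.26, 20.9 and 14.4 CPM in control libraries. LV levels of Angptl4 were 13.3, 4.48 and 8.86 CPM in Wnt LOF libraries, against 3.96, 9.70 and 10.4 CPM in control libraries. Both comparisons overlapped, and the log2 fold changes of -0.80 (SE 0.49) in the RV and 0.17 (SE 0.50) in the LV rest on 68 to 315 counts per library.

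Ucp3 encodes uncoupling protein 3, a carrier of the inner mitochondrial membrane in muscle. In the RV it stood at 55.5, 52.1 and 70.5 CPM in Wnt LOF libraries, against 90.1, 91.9 and 74.1 CPM in control libraries. The RV groups did not overlap, though WntLOF RV 3 came close to control RV 3. In the LV it stood at 105, 47.5 and 53.6 CPM in Wnt LOF libraries, against 49.0, 61.5 and 47.8 CPM in control libraries, so that WntLOF LV 1 was again the highest of all. The log2 fold changes were -0.52 (SE 0.26, unadjusted p 0.0721) in the RV and 0.38 (SE 0.26) in the LV. Without WntLOF LV 1 the LV value was -0.064.

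Acot1 and Acot2 encode acyl-CoA thioesterases, which release fatty acid from its CoA ester, Acot1 in the cytosol and Acot2 in mitochondria. Acot1 stood at 4.78, 6.80 and 10.9 CPM in Wnt LOF RV libraries, against 6.58, 10.9 and 13.1 CPM in control RV libraries. Its LV levels were 7.89, 4.41 and 7.52 CPM in Wnt LOF libraries, against 4.27, 5.06 and 6.43 CPM in control libraries. The groups overlapped in both ventricles, with log2 fold changes of -0.44 (SE 0.33) in the RV and 0.34 (SE 0.34) in the LV.
Acot2 stood at 81.3, 85.6 and 96.3 CPM in Wnt LOF RV libraries, against 91.2, 88.6 and 106 CPM in control RV libraries. In the LV it stood at 101, 74.1 and 96.0 CPM in Wnt LOF libraries, against 77.4, 89.0 and 88.9 CPM in control libraries. These groups overlapped as well, and the log2 fold changes were -0.12 (SE 0.12) in the RV and 0.086 (SE 0.12) in the LV. The paralogs share sequence: 13.6% of the 50-base stretches of Acot1 also occur in Acot2, and 24.5% of those of Acot2 in Acot1. Whether such reads were dropped, split or counted at random is not given in the sources used here. The levels of both genes are uncertain for that reason.

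The tallies that follow are a description, since the 7 genes were picked with earlier results of these data known. Across the 7 genes, all had log2 fold changes below 0 in the RV, Wnt LOF against control, with a median of -0.44 where the median of all genes tested was 0.000715 and 50.3% of genes lay above 0. Pdk4, Ucp3 and Plin2 had ranges that did not overlap, lower in Wnt LOF, which was so for 3.94% of genes tested. In the LV, 2 of 7 lay below 0 with a median of 0.086, and the non-overlapping gene was Plin2 alone, against 3.95% of genes. That LV tally rested on single libraries: 6 of 7 lay below 0 without WntLOF LV 1 (median -0.064) and without both Wnt LOF libraries numbered 1 (median -0.063), 4 without control LV 1 (median -0.087), and 3 without WntLOF LV 1, WntLOF RV 1 and control LV 2 (median 0.033). No gene in the whole table was called in either comparison by edgeR (0%). Without WntLOF RV 3, the library with the most Myl7, the RV values were -1.28 for Pdk4 and -0.38 for Plin2, and without both Wnt LOF libraries numbered 1 they were -1.12 and -0.40. At an unadjusted p under 0.05 edgeR gave 2.7% of genes in the RV (Pdk4 and Plin2 among them) and 2.85% in the LV (Plin2 among them), and DESeq2 called 0 genes in both. The difference between the effects, RV minus LV, was below 0 for all 7 (median -0.79), and for 6 of 7 without WntLOF LV 1 (median -0.31). It was widest relative to its error for Ucp3, at -0.90 (SE 0.37, unadjusted p 0.0344, adjusted p 1 by edgeR), where 2.01% of genes had an unadjusted p under 0.05 and 0% were called. Without both Wnt LOF libraries numbered 1 the Ucp3 difference was -0.41 and that of Pdk4 was -0.21, against -0.90 with all libraries.
In the authors' deposited tables, which list 14275 genes for the RV and 14276 for the LV, no gene had an adjusted p under 0.05. The authors' deposited table gave Pdk4 a log2 fold change of -1.14 in the RV (p 0.00199, adjusted p 0.918), and Plin2 -0.41 in the RV (p 0.000839) and -0.30 in the LV (p 0.0083).

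**Figure D2:**
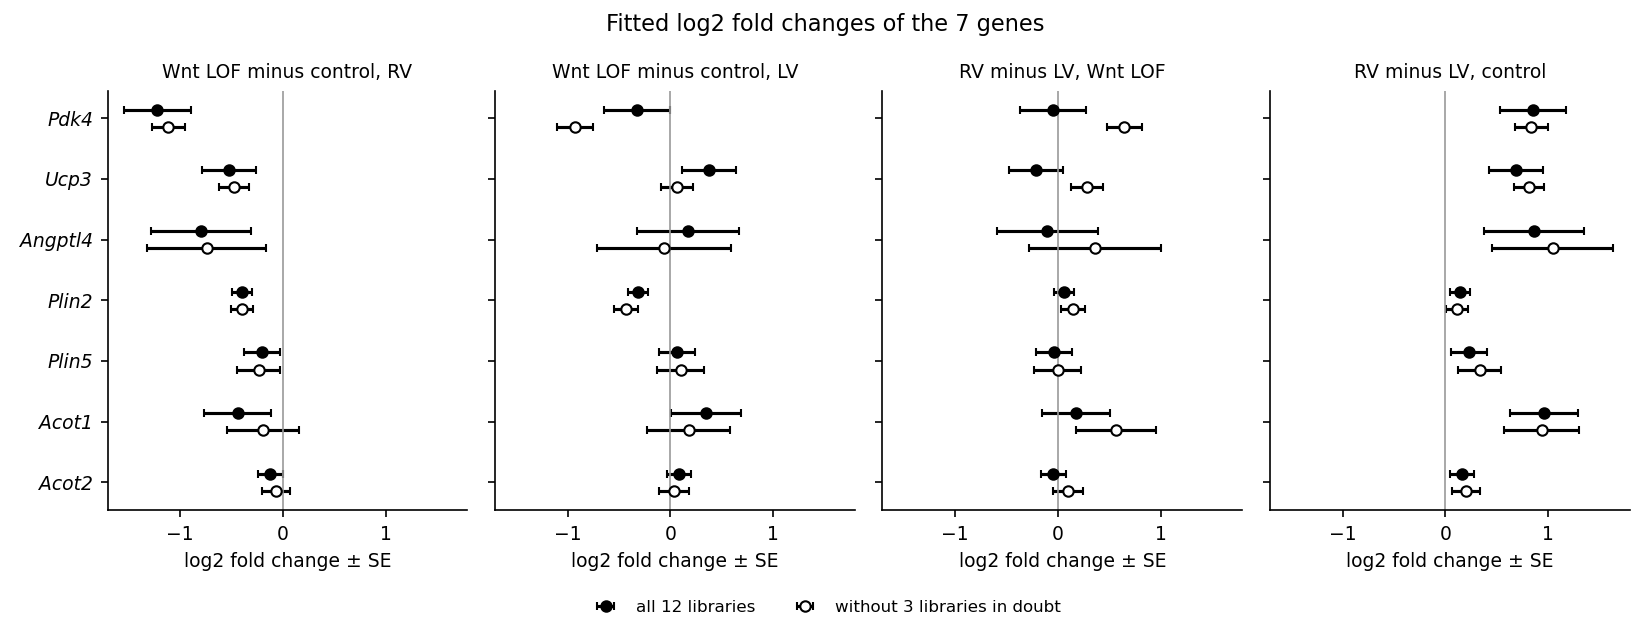
Log2 fold changes ± SE from edgeR (x axis) of the 7 genes (y axis) in 4 comparisons, where filled points use all 12 libraries and open points leave out WntLOF LV 1, WntLOF RV 1 and control LV 2. In the LV the open point of Pdk4 stands at -0.93 and the filled one at -0.32, while the RV points of Pdk4 and Plin2 lie below 0 either way.

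The 7 genes were next compared between the ventricles of control mice, RV against LV. The control RV libraries used here also enter the RV genotype comparison above with the opposite sign, so the results are not independent. Pdk4 stood at 1299, 894 and 917 CPM in control RV, against 619, 557 and 541 CPM in control LV. Ucp3 averaged 85.4 ± 9.80 CPM in control RV and 52.8 ± 7.56 CPM in control LV (SD, n = 3 each), and Acot1 averaged 10.2 ± 3.32 CPM in control RV and 5.25 ± 1.09 CPM in control LV (SD, n = 3 each). The ranges of Pdk4, Ucp3 and Acot1 did not overlap, each higher in the RV, which was so for 6.68% of genes tested.
The log2 fold changes were 0.86 (SE 0.32) for Pdk4, 0.69 (SE 0.26) for Ucp3, 0.96 (SE 0.33) for Acot1 and 0.86 (SE 0.49) for Angptl4. They were smaller for Plin5 (0.23, SE 0.18), Acot2 (0.17, SE 0.12) and Plin2 (0.15, SE 0.096). All 7 thus lay above 0, with a median of 0.69 against 0.0039 over all genes tested, of which 51.0% lay above 0. The 7 genes were picked with earlier results of these data known, so this tally is a description. The adjusted p-values were 0.922 to 0.927 by edgeR, which called 0% of genes (4.89% had an unadjusted p under 0.05), and DESeq2 called 0 genes.

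Control RV and LV libraries with the same number deviated together, and were taken as pairs. This pairing was read from the same data and not from the labels, so results with the block depend on that choice. The libraries numbered 3 were also set apart by Y-linked reads. Pdk4 was 2.10-fold, 1.60-fold and 1.70-fold higher in RV than LV in the control pairs numbered 1 to 3. Ucp3 was 1.84-fold, 1.49-fold and 1.55-fold higher, and Plin2 1.11-fold, 1.11-fold and 1.10-fold higher, the narrowest spread of the 7. Angptl4 and Acot1 were higher in the RV in 3 of 3 control pairs too, and Plin5 and Acot2 in 2 of 3.
With the replicate number as a block and the control libraries alone, edgeR called 326 genes, 143 of them higher in the RV (0.96% of genes tested), and 4 of the 7 were among the higher ones. Pdk4 had 0.84 (SE 0.091, adjusted p 8.48e-05), Ucp3 0.70 (SE 0.076, adjusted p 9.05e-05), Acot1 0.93 (SE 0.14, adjusted p 0.00242) and Angptl4 0.88 (SE 0.14, adjusted p 0.00292). Over the other alternatives for this comparison the adjusted p-values of these 4 ran up to 1, and the block over all 12 libraries called none of them.
Leaving out the pair numbered 2, which holds control LV 2, cut the calls to 67 (0.193% higher in RV). Pdk4 and Ucp3 were then still called, while Angptl4 (adjusted p 0.129) and Acot1 (adjusted p 0.085) were not. Without the pair numbered 1 (2.99% called higher) or the pair numbered 3 (0.713% called higher), all 4 were called by edgeR. With 2 pairs left, each gene has 1 residual degree of freedom, so its spread is estimated largely from other genes. Residual degrees of freedom are few in the blocked fit of all 3 control pairs too, so its p-values also draw on the spread of other genes.

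**Figure D3:**
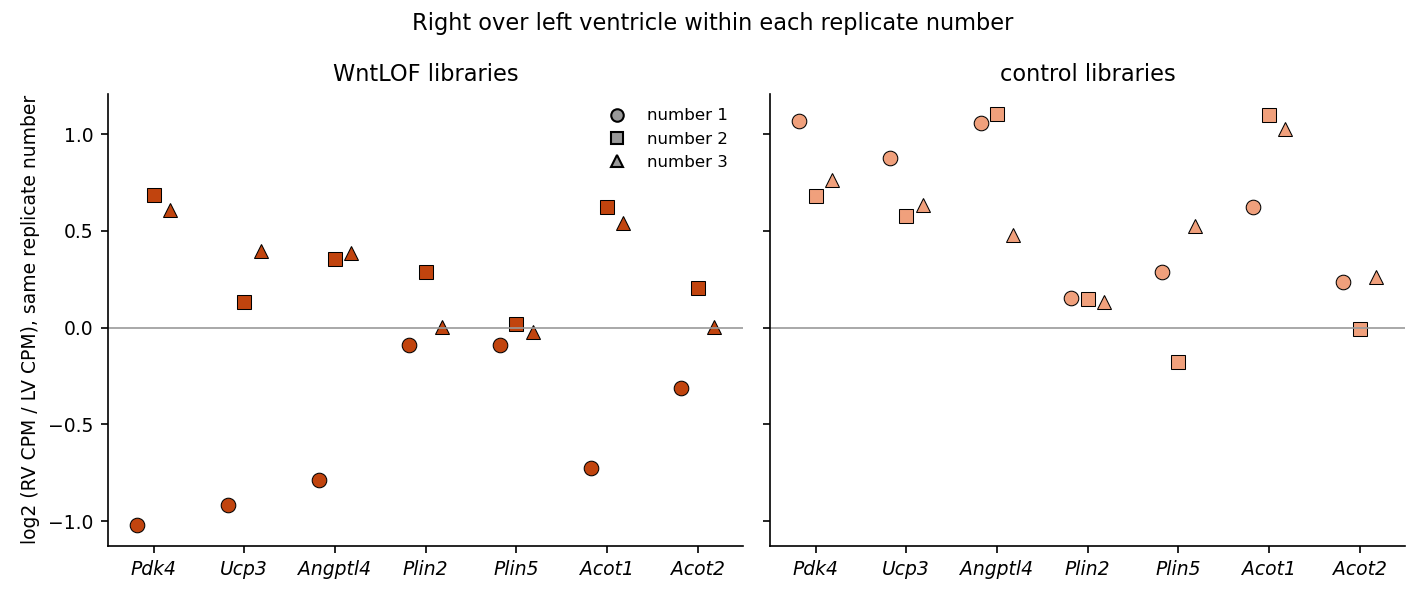
Log2 ratio of RV over LV CPM (y axis) for each gene (x axis) within libraries of the same replicate number, Wnt LOF left and control right. In control libraries the points of Pdk4, Ucp3, Angptl4, Plin2 and Acot1 are all above 0, and in Wnt LOF libraries the circle (number 1) lies below 0 for all 7 genes.

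In the Wnt LOF libraries the RV and LV did not differ for these genes beyond the spread between libraries. Log2 fold changes, RV against LV, ran from -0.21 (Ucp3, SE 0.26) to 0.17 (Acot1, SE 0.33), with adjusted p-values of 1 by edgeR (0% of genes called, 4.81% with an unadjusted p under 0.05, 0 genes called by DESeq2). The pairing of numbers 1 and 2 is uncertain in Wnt LOF libraries, with correlations of 0.191 and 0.197 as numbered and 0.201 and 0.133 crossed. Folds by pair and blocked fits of these libraries carry that limit. By number the pairs split, and Pdk4 was 1.61-fold and 1.53-fold higher in the RV in the pairs numbered 2 and 3. It stood at 0.493 times the LV level in the pair numbered 1. That pair is made of the libraries whose ventricle-typical genes go against their labels. Without it the Pdk4 value was 0.65 (SE 0.16, adjusted p 0.352 by edgeR), that of Acot1 0.57 and that of Ucp3 0.28. With the block, the Wnt LOF libraries alone and without that pair, edgeR called 241 genes, 205 of them higher in the RV (1.36%), and Pdk4 was the 1 of the 7 among them (0.66, SE 0.12, adjusted p 0.0122). In the blocked fits of the Wnt LOF libraries its adjusted p otherwise ran from 0.99 to 1. Whether these libraries carry the right ventricle labels was not tested.

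None of the receptor and partner genes was called between genotypes (0% of genes called). Of 20 tested genes in a list of PPARs, retinoid X receptors, coregulators, the kinase subunit gene Prkaa2, and the genes Fabp3 and Pnpla2 that carry or release fatty acids, 10 lay above 0 in the RV, Wnt LOF against control, with a median of 0.00053. In the LV, 11 lay above 0 with a median of 0.021. Ppara, the main PPAR of heart muscle, had -0.24 (SE 0.12, unadjusted p 0.0702) in the RV and -0.074 (SE 0.12) in the LV. Ppard had 0.14 (SE 0.16), Rxra -0.030 (SE 0.094) and the coactivator gene Ppargc1a -0.086 (SE 0.15) in the RV. In the LV the smallest p was that of Esrra, a nuclear receptor gene, at 0.20 (SE 0.085, unadjusted p 0.0321, adjusted p 0.999 by edgeR), followed by Fabp3 at -0.29 (SE 0.18). Ppard had 0.22 (SE 0.16) and Ppargc1a 0.20 (SE 0.15) there. In control libraries, RV against LV, 15 of the 20 lay above 0 with a median of 0.069, led by Ppargc1a at 0.30 (SE 0.15, unadjusted p 0.0671).

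Of 35 other PPAR-responsive genes of fatty acid use, 32 were tested. In the RV, Wnt LOF against control, 26 lay below 0 with a median of -0.13, and none was called. Cpt1b, the muscle enzyme that admits long-chain fatty acids to mitochondria, had the smallest p at -0.27 (SE 0.087, unadjusted p 0.00913), followed by Hadhb at -0.19 (SE 0.10) and Acaa2 at -0.23 (SE 0.13), enzymes of beta-oxidation. Without both Wnt LOF libraries numbered 1, 25 of 32 lay below 0 with a median of -0.081, and 29 did so without WntLOF RV 3, with a median of -0.16. In the LV, 19 of 32 lay below 0 with a median of -0.024. That count was 25 without the same pair of libraries (median -0.091) 14 without control LV 2 (median 0.0047), and 20 without all 3 of these libraries (median -0.053), so the LV tally moved with the libraries left out.
In control libraries, RV against LV, 30 of the 32 lay above 0 with a median of 0.15, and 32 of 32 without control LV 2 (median 0.18). With the block and the control libraries alone, genes called higher in the RV included the fatty acid transporter gene Slc27a1 (0.40, SE 0.079, adjusted p 0.0138 by edgeR) and Cpt1a (0.29, SE 0.066, adjusted p 0.0339 by edgeR), where 0.96% of all genes were called higher, and none of the list was called lower. The median of the 7 genes was further from 0 than that of this list in the RV genotype comparison and in RV against LV in control. The list and the 7 genes were picked with results of these data known, so this is a description.

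**Figure D4:**
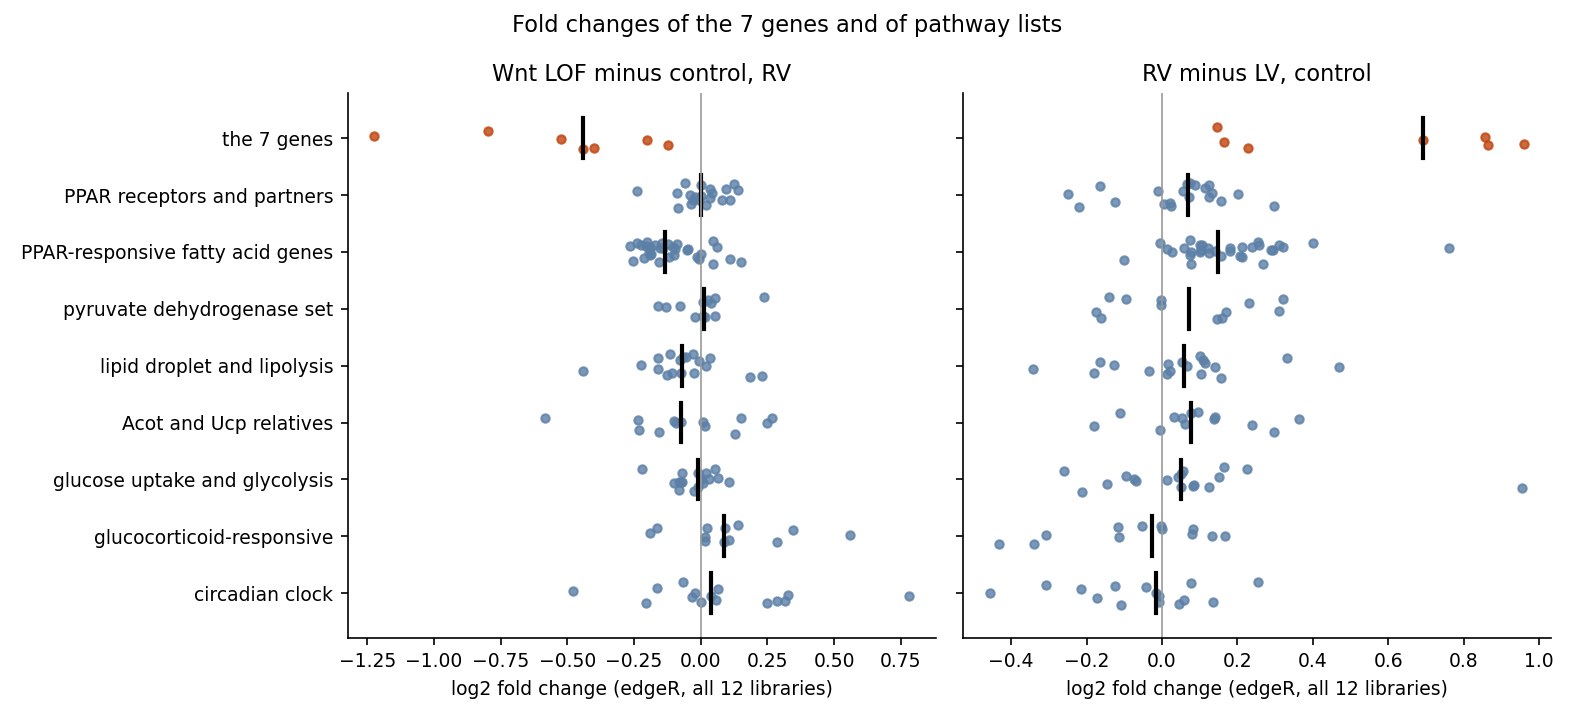
Log2 fold changes from edgeR (x axis) of the 7 genes and of each pathway list (rows), Wnt LOF minus control in the RV on the left and RV minus LV in control on the right. Each point is a tested gene and each black bar a median, -0.44 and 0.69 for the 7 genes and -0.13 and 0.15 for the other PPAR-responsive genes of fatty acid use.

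Lists of genes with related roles had medians closer to 0 than that of the 7 genes in the RV genotype comparison. Among 12 genes of pyruvate dehydrogenase, its other kinases and phosphatases and the pyruvate carrier, 8 lay above 0 in the RV, Wnt LOF against control, with a median of 0.011. The phosphatase genes Pdp2 (0.31, SE 0.071, adjusted p 0.0305) and Pdp1 (0.32, SE 0.073, adjusted p 0.0339), which reverse what Pdk4 does, were called higher in the RV of control libraries by edgeR with the block, as were 0.96% of all genes.
Of 18 tested lipid droplet and lipolysis genes, 14 lay below 0 in the RV, Wnt LOF against control, with a median of -0.071. In the LV 13 did, with a median of -0.064. For the mean of both ventricles 16 lay below 0, with a median of -0.075 and no call. There 49.2% of all genes lay above 0, and the 7 genes had a median of -0.073. The smallest p-values were those of Cidea, a lipid droplet protein (-0.26, SE 0.087, unadjusted p 0.0105), and G0s2, an inhibitor of triglyceride lipase (-0.45, SE 0.17, unadjusted p 0.0212). Without both Wnt LOF libraries numbered 1, 13 of 19 lay below 0, and 13 of 18 without control LV 2 as well. Fitm1, which helps form lipid droplets, was the 1 of 17 tested genes of this list called in control libraries with the block (0.33 higher in RV, SE 0.076, adjusted p 0.0337 by edgeR), where 0.96% of all genes were called higher. In the mean of both ventricles, Wnt LOF against control, Plin3, another perilipin gene, had -0.14 (SE 0.095).
The 13 tested relatives of Acot1, Acot2 and Ucp3 had a median of -0.074 in the RV genotype comparison, with 7 below 0, and of -0.099 in the LV, with 8 below 0. In the RV the 18 glucose uptake and glycolysis genes had a median of -0.0089, with 11 below 0. In control libraries with the block, 1 of those 18 was called, Pfkfb1, a regulator of glycolysis (0.97 higher in RV, SE 0.10, adjusted p 5.82e-05 by edgeR), against the same 0.96% of all genes.

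Pdk4 and Angptl4 also respond to glucocorticoids, and Pdk4 follows the daily clock, so lists for both were read. Of 12 glucocorticoid-responsive genes, 10 lay above 0 in the RV, Wnt LOF against control, with a median of 0.089. In the LV 7 of them did, with a median of 0.015. Sgk1, a kinase gene, had 0.56 (SE 0.14, unadjusted p 0.00132, adjusted p 1 by edgeR) in the RV. Of 15 clock genes, 9 lay above 0 in the RV with a median of 0.040, and Npas2 had the smallest p (0.78, SE 0.31, unadjusted p 0.026). At an unadjusted p under 0.05 by edgeR, 2 clock genes were higher and 1 lower there, where 2.7% of all genes passed. The median therefore does not show that the clock genes were alike between genotypes, and a difference in daily phase was not tested. Per1, held by both lists, was called lower in the RV of control libraries with the block (-0.31, SE 0.070, adjusted p 0.0336 by edgeR), as were 1.23% of all genes. The labels give no time of collection.

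Several of the 7 genes are also high in fat and skeletal muscle, whose markers were read in every library. The 6 adipocyte markers Adipoq, Lep, Plin1, Cidec, Retn and Cfd summed to 0.843 to 2.72 CPM in Wnt LOF RV and 0.131 to 1.66 CPM in control RV, and to 1.71 to 3.93 CPM in Wnt LOF LV and 1.85 to 3.43 CPM in control LV. All of these sums were low, and the ranges of the genotypes overlapped in both ventricles. Ucp1, the defining gene of brown fat, was at 0 in 9 of 12 libraries and at most 0.131 CPM elsewhere, and Cidea, the other brown fat marker read, stood at 15.1 to 26.2 CPM. The 6 fast skeletal muscle markers summed to 1.96 to 3.31 CPM over all libraries. Markers of other heart cells had ranges that differed in part between groups. The 5 endothelial markers summed to 620 to 795 CPM in Wnt LOF LV and 791 to 850 CPM in control LV, and to 638 to 796 CPM in Wnt LOF RV and 675 to 729 CPM in control RV. The 5 macrophage markers summed to 146 to 168 CPM in Wnt LOF RV and 121 to 149 CPM in control RV, and to 143 to 156 CPM in Wnt LOF LV and 115 to 149.8 CPM in control LV. In the mean of both ventricles, 5 of 5 lay above 0, Wnt LOF against control, with a median log2 fold change of 0.17, and 2 had an unadjusted p under 0.05, as 2 did in the RV. The 5 fibroblast markers summed to 699 to 900.2 CPM over all libraries. The 5 erythroid markers summed to 89.3 to 321 CPM in Wnt LOF RV and 164 to 247 CPM in control RV, and to 77.3 to 224 CPM in Wnt LOF LV and 109.7 to 138 CPM in control LV. The part of these cells in the results above was not tested.

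Several of the 7 genes also varied together across the 12 libraries. Of 21 pairs, all had a positive Pearson r of log2 CPM (20 when scaled by total counts), and 6 had an adjusted p under 0.05 by a two-sided permutation test (3 by Spearman's rho, and 8 by rho when scaled by total counts). Pdk4 and Plin2 were the closest pair, with r of 0.892 and rho of 0.909 (permutation p 0.0001 and 8e-05, adjusted 0.0021 and 0.00168, n = 12). Their r was 0.785 without the 2 libraries farthest from the median of Pdk4, and 0.771 for deviations from the group means. Acot1 and Acot2, which share sequence, had r of 0.817 and rho of 0.804 (permutation p 0.0012 and 0.00239, adjusted 0.0116 and 0.0167), with r of 0.711 without the 2 farthest libraries and 0.816 for deviations. Angptl4 and Acot1 had r of 0.804 and rho of 0.825 (permutation p 0.00165 and 0.00143, adjusted 0.0116 and 0.015), with r of 0.718 without the 2 farthest libraries and 0.754 for deviations. Without WntLOF LV 1, WntLOF RV 1 and control LV 2, 3 pairs passed by r, and these were the same 3. By rho 1 pair passed there, Pdk4 and Plin2 (adjusted permutation p 0.0155). Angptl4 and Acot1 (0.0845) and Acot1 and Acot2 (0.0936) did not. Plin5 had r of 0.0111 to Plin2 and 0.207 to Pdk4, and of 0.635 to Acot2, 0.557 to Angptl4 and 0.523 to Acot1. The r of Plin2 to Acot1 was 0.202, to Acot2 0.248 and to Angptl4 0.277. Not every pair stayed positive in the further readings. For deviations from the group means, r was -0.366 for Plin2 and Plin5 and -0.0468 for Pdk4 and Plin5. It was -0.0893 for Angptl4 and Plin2 and -0.0892 for Plin2 and Acot1. Without the 2 libraries farthest from the median of the first gene, r was -0.318 for Plin5 and Acot1 and -0.134 for Plin2 and Acot2. Libraries of the same number may share a heart, so the 12 points may not be independent. The permutations ran over all 12 libraries without regard to group, so differences between groups enter these p-values. No test was made for r of the deviations from group means.

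A search of 12313 genes for levels most like the mean of the 7, each scaled to its own mean and SD, gave Ephx2, a soluble epoxide hydrolase gene (r 0.925), the mitochondrial carrier gene Slc25a42 (r 0.907), Bri3bp (r 0.894) and Mlycd, the malonyl-CoA decarboxylase gene (r 0.892), over 12 libraries and as a description. Mlycd is in the list of PPAR-responsive genes of fatty acid use. For Pdk4 alone the most alike genes were Plin2, Aox1 (r 0.876) and Mturn (r 0.870), and for Ucp3 they were Tut1 (r 0.881), the carnitine transporter gene Slc22a5 (r 0.870) and Mllt3 (r 0.861). The mean scaled level of the 7 ran highest in control RV (0.586, 0.836 and 1.32 SD units for numbers 1 to 3). It was -0.594, -0.455 and 0.163 in Wnt LOF RV. In the LV it was 0.716, -1.28 and -0.327 in Wnt LOF and -0.843, -0.0182 and -0.103 in control, so that WntLOF LV 1 was the one LV library within the range of control RV.

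**Figure D5:**
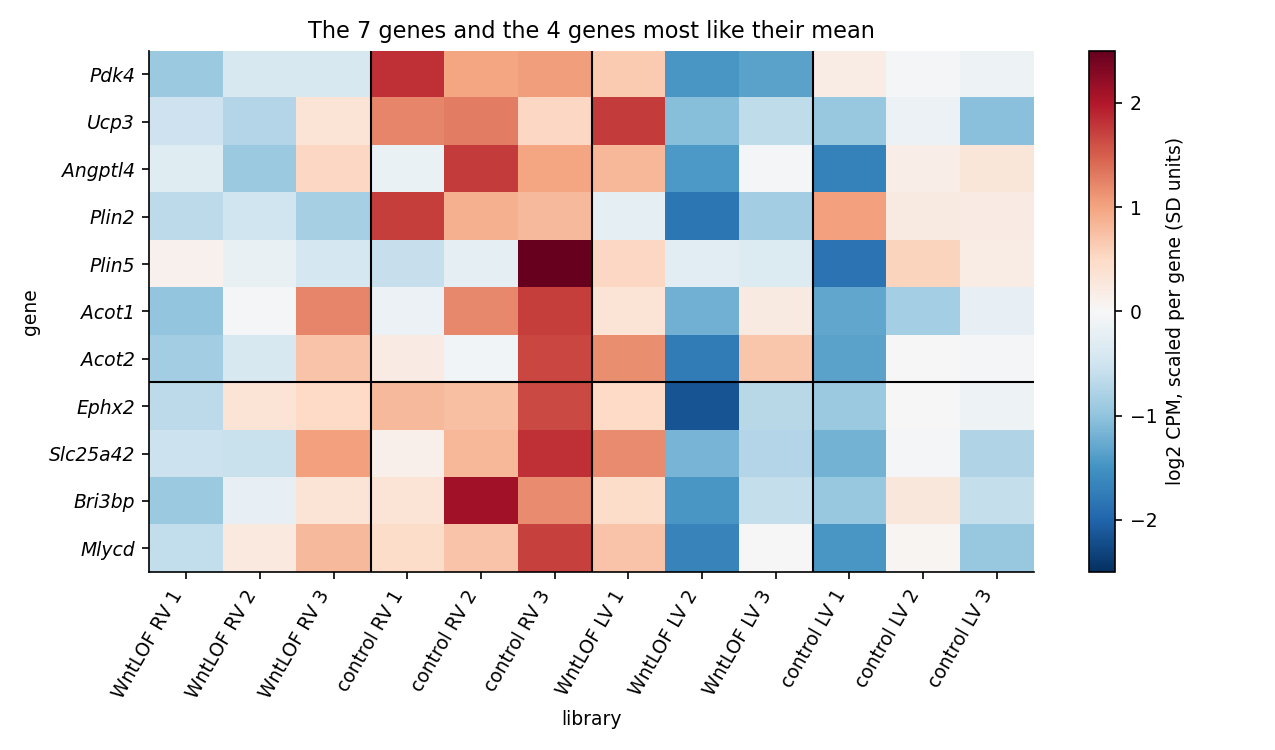
Log2 CPM scaled per gene to mean 0 and SD 1 (colour) for the 7 genes, above the line, and the 4 genes most like their mean, below it, in the 12 libraries (x axis). Red marks high and blue low, the control RV block is mostly red, and WntLOF LV 1 is red for most of the genes while WntLOF LV 2 is blue.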

How the data were processed

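Per the labels and the file headers, the authors deposited raw read counts for each Ensembl gene in the 12 libraries. They had used featureCounts from Subread, and edgeR is named too, per the submitters' processing notes. Not given in the sources used here were versions, aligner, genome build and the strand setting. Reads of antisense or overlapping genes therefore cannot be told apart. The authors also deposited a table for each ventricle that holds, per the file headers, a log2 fold change, a p-value, its adjusted form and a signed linear fold per gene. Of 41192 count rows, 598 repeated rows with equal counts were left out, which leaves 40594 genes. Groups come from the sample labels.

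Tests used edgeR 4.0.16 with limma 3.58.1 in R 4.3.3. Settings were TMM, filterByExpr by group, robust quasi-likelihood fit with 1 mean per group over all 12 libraries, 5 planned comparisons and 1 added, and Benjamini-Hochberg over 15494 genes with a threshold of 0.05. A gene past it is written as called. Each SE was computed as the absolute log2 fold change divided by the root of F. CPM are TMM-scaled, and log2 CPM used a prior count of 2. Permutations numbered 100000. DESeq2 1.42.0, other scalings and filters, fits of the compared groups alone, a covariate for Y-linked reads, replicate blocks and left-out libraries were alternatives. The fits were tested on simulated data. Depth of 13274922 to 19173391 counts leaves Acot1 and Angptl4, at 67 to 315 counts, with the widest counting error.

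Equal numbers were taken to pair RV and LV because deviations from the group means of all 3 pairs correlated above 0.1 in control (0.411, 0.29 and 0.517) and Wnt LOF libraries (0.191, 0.197 and 0.594). In Wnt LOF libraries the unmatched numbers 1 and 2 correlated above 0.1 as well (0.201 and 0.133), so there the pairing of these 2 numbers is not told apart from the crossed one. The pairing comes from the data, not from the labels. The 7 genes and all lists were chosen with earlier results of these data known. All 7 genes are named. From each list the text names at most 3 genes with the smallest p per comparison, called genes, and a short set of genes (such as Ppara, Cpt1b and Plin3) whatever their values. Genes most alike needed a mean log2 CPM of at least 1. The mean of both ventricles, the left-out pairs and the counts of list genes without libraries in doubt were added after seeing the data. 1 further gene that these rules would name is not reported here.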

Additional observations from a re-analysis of the deposited data

How the results depend on the processing

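Of 987 values of the 7 genes under alternatives, 927 kept their direction, 60 changed sign, 9 gained a call and 2 lost it. Calls over all genes moved from 0 to 9 for RV against LV in control with the compared groups alone, to 326 with the replicate block as well, and to 2 without both Wnt LOF libraries numbered 1, with or without control LV 2. For RV against LV in Wnt LOF they moved to 1 with the block, to 1 with the block and these groups alone, and to 2 without the same libraries. The interaction gave 1 call with the block. The mean of both ventricles gave 2 calls without both Wnt LOF libraries numbered 1 and 5 by DESeq2. The blocked control fit gave 691, 67 and 193 calls without the pairs numbered 1, 2 and 3. The blocked Wnt LOF fit gave 241 without the pair numbered 1 and 0 without that numbered 3. Without the 3 libraries in doubt 3 relations, not 6, passed by r, and 1, not 3, by rho.

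Leaving out 1 library gave 0 to 1 calls for Wnt LOF against control in the RV, in the mean, and for RV against LV in Wnt LOF. In the LV genotype comparison it gave -0.064 to 0.59 for Ucp3, -0.25 to 0.49 for Angptl4, -0.087 to 0.17 for Plin5 and -0.0016 to 0.21 for Acot2. Plin5 ran from -0.33 to 0.054 in the RV genotype comparison and from -0.026 to 0.35 for RV against LV in control. For RV against LV in Wnt LOF the ranges were -0.29 to 0.54 for Pdk4, -0.42 to 0.23 for Ucp3, -0.42 to 0.31 for Angptl4, -0.030 to 0.15 for Plin2, -0.081 to 0.033 for Plin5, -0.20 to 0.41 for Acot1 and -0.17 to 0.045 for Acot2. The Plin2 interaction ran from -0.17 to 0.0034. In the mean of both ventricles the ranges were -0.29 to 0.036 for Ucp3, -0.14 to 0.060 for Plin5, -0.23 to 0.076 for Acot1 and -0.060 to 0.048 for Acot2.

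Without both Wnt LOF libraries numbered 1 the LV genotype values turned to -0.063 for Ucp3, -0.24 for Angptl4, -0.0051 for Plin5 and -0.00060 for Acot2, and without control LV 2 as well Angptl4 was -0.066 and the Plin2 interaction 0.028. RV against LV in Wnt LOF then turned to 0.65 for Pdk4, 0.28 for Ucp3, 0.37 for Angptl4, 4.1e-06 for Plin5 and 0.098 for Acot2 without the first 2 libraries, and to 0.65, 0.28, 0.37 and 0.097 for Pdk4, Ucp3, Angptl4 and Acot2 without all 3. Acot1 turned to 0.0012 in the mean of both ventricles without the first 2. Plin2 turned to -0.0011 for RV against LV in Wnt LOF with total counts. With the replicate block Pdk4 turned to 0.10 there, and to 0.099 with these groups alone. In that blocked Wnt LOF fit, leaving out pair 1 turned Ucp3 to 0.28, Angptl4 to 0.38, Plin5 to 0.0066 and Acot2 to 0.11. Leaving out pair 2 turned Pdk4 to -0.21, Plin2 to -0.045 and Acot1 to -0.055, and leaving out pair 3 turned Pdk4 to -0.18 and Acot1 to -0.080. The causes were not tested.

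For the genotype comparisons equal numbers did not pair libraries (correlations -0.043, -0.0903 and 0.233 in the LV and 0.0885, 0.113 and 0.306 in the RV), and the block called 0 genes in both. Other than in control and Wnt LOF RV against LV, the block changed no call of the 7 genes.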

Other observations

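Acot5, a peroxisomal relative of Acot1 and Acot2, was at 0 CPM in both libraries labelled WntLOF 3 and at 1.05 to 2.02 CPM in the other 10. It was chosen after its values were seen. In the same 2 libraries Acot1 stood at 10.9 CPM (RV) and 7.52 CPM (LV) and Acot2 at 96.3 and 96.0 CPM, all within the range of the other libraries, and Acot6 at 4.41 and 3.98 CPM. Since 19.2% of the 50-base stretches of Acot1 occur in other genes, Acot5 among them, whether the Acot1 counts of these libraries include reads of another Acot gene was not tested.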
